A study of Homo sapiens with 3 samples.

Results

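The mitotic cells described here were the cells of 3 single-cell RNA libraries that carried the largest share of UMIs from 7 genes of mitosis, CCNB1, CDC20, PLK1, CENPF, AURKA, CCNB2 and HMMR. A UMI, or unique molecular identifier, stands for 1 captured RNA molecule. Within each library the top 10% by this share was taken, among cells that held 5000 or more UMIs with no more than 20% of them from the mitochondrial genome. This gave 3368 mitotic cells of 33689 cells over the filter, out of 54788 cell barcodes listed in all. There were 163 of 1637 cells in the stretched bottom library, 1718 of 17182 in the stretched top library and 1487 of 14870 in the not stretched top library. All cells were HCT116, a human colorectal carcinoma line, carrying an H2B-GFP histone label, grown in an organ-on-chip, a microfluidic culture with a top and a bottom channel. The stretched bottom group held cells recovered from the bottom channel, labelled invaded, after 6 days of peristaltic stretch. The stretched top group held cells that had stayed in the top channel under the same stretch, labelled non-invaded. The not stretched top group came from the top channel without peristalsis. All groups share the 1 cell line, the label, release with trypsin and a sort for GFP; how many chips fed each library, and which promoter drives the label, are not given in the sources used here. As every group is 1 library, differences were given as sizes without a test or a replicate check, and every 95% interval covers counting error only.

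Cells that prepare to divide build up cyclin B, which activates the kinase CDK1 and drives the cell into mitosis. There, kinases such as PLK1 and the Aurora kinases assemble the spindle, motor proteins and kinetochores align the chromosomes, and the anaphase-promoting complex with its activator CDC20 then destroys cyclin B and securin so that the cell can divide. The RNAs of these genes start to accumulate in late S phase and peak in G2 and mitosis, so RNA levels alone do not separate G2 cells from cells in mitosis. Many of their promoters hold the CHR (cell cycle genes homology region) element, the site of MuvB complexes that repress them in resting cells and, with B-MYB and FOXM1, activate them before mitosis, often next to CCAAT boxes bound by NF-Y.

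Promoter sequences are shown because these elements were searched for in the genes that were higher in mitotic cells. Each stretch runs 5′ to 3′ on the gene's strand, from 150 bases before to 10 bases after the RefSeq start on GRCh38.p14. Capitals mark TTTGAA or TTTAAA, the CHR letters, and CCAAT, each on either strand. The first 6 are genes of the rule, the next 3 are the genes of the mitosis lists with the largest ratio in mitotic cells of all 3 libraries, and GDF15 is a p53 target that was lower in mitotic cells.
CCNB1 (chr5:69167000-69167159, plus strand): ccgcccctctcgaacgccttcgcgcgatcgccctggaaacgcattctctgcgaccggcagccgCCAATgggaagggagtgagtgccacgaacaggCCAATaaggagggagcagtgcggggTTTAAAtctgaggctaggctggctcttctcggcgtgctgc
CDC20 (chr1:43358831-43358990, plus strand): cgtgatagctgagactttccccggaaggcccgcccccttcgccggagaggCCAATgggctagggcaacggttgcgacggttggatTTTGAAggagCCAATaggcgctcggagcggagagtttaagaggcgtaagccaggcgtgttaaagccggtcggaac
PLK1 (chr16:23678739-23678898, plus strand): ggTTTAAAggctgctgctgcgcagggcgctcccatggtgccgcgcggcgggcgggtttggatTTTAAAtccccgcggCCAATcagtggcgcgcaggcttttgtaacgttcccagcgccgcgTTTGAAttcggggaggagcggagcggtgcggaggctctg
CENPF (chr1:214603045-214603204, plus strand): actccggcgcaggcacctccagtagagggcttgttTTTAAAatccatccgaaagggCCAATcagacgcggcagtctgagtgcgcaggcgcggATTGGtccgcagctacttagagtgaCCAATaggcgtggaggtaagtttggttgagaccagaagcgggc
CCNB2 (chr15:59104996-59105155, plus strand): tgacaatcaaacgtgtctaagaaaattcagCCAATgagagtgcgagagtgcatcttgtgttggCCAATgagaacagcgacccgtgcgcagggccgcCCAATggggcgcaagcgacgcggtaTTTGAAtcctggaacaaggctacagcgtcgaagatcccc
HMMR (chr5:163460482-163460641, plus strand): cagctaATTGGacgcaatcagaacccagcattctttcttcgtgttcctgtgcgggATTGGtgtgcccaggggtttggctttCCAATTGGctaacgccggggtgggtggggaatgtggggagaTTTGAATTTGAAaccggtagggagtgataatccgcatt
NEK2 (chr1:211675612-211675771, minus strand): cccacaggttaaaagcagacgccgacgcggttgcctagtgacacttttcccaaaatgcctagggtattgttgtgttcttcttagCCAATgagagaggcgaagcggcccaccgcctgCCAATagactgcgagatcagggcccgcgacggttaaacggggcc
KIF20A (chr5:138178962-138179121, plus strand): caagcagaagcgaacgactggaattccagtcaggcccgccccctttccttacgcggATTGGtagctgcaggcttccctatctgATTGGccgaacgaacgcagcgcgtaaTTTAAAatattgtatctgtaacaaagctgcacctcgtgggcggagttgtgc
PIF1 (chr15:64825638-64825797, minus strand): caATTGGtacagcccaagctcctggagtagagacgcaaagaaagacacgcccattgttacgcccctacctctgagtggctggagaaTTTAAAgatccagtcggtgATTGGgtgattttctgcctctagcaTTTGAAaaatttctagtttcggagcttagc
GDF15 (chr19:18386008-18386167, plus strand): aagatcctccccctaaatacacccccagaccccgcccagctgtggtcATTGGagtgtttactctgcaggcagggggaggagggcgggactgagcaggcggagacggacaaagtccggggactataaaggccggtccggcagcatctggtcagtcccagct
The window of 300 bases around the start held CHR letters in 6 of the 6 rule genes with an entry in the promoter table, and CCAAT in 6 of 6. NEK2, a centrosome-separating kinase, held CCAAT 2 times and no CHR letters in this window. It had the largest ratio in the list of kinases and spindle checkpoint genes, which leaves out the rule genes. Outside the rule, 169 genes were at least 1.5-fold higher in mitotic cells of all 3 libraries, and 139 of them matched an entry. Of these, 85 (61.2%) held CHR letters, 95 (68.3%) held CCAAT and 64 (46.0%) held both. Of 32 matched genes that were lower in all 3 libraries, 4 (12.5%) held CHR letters, 13 (40.6%) CCAAT and 1 (3.12%) both. Over the 6626 matched genes compared in all 3 libraries, which could have been called, the shares were 15.3%, 37.5% and 6.47%. Over all 27305 promoters of the table, they were 24.3%, 35.7% and 9.49%. A match describes the letters of the window and no more.

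The cut fell on a slope, not in a gap, in every library. The 7-gene share of a cell is given as CPM, its UMI count scaled to a common total of UMIs. The lowest member stood at 1913.42 CPM and the highest cell outside at 1913.38 CPM in the stretched bottom library, at 1482.66 and 1482.4 CPM in the stretched top library, and at 1551 and 1550.89 CPM in the not stretched top library. Members within 10% of the cut made up 28.8%, 17.5% and 18.4% of the mitotic cells in that order of libraries. The median mitotic cell carried 110, 23 and 30 UMIs of the 7 genes, against 19, 2 and 2 in the rest. Stretched bottom cells carried more UMIs, with a median of 45633 UMIs in mitotic cells and 45337.5 in the rest. Stretched top cells had 11341.5 and 10227.5 UMIs, and not stretched top cells 14201 and 11887 UMIs. A share from 23 UMIs is less exact than one from 110, so ranks near the cut are less exact in the top channel libraries.

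**Figure D1:**
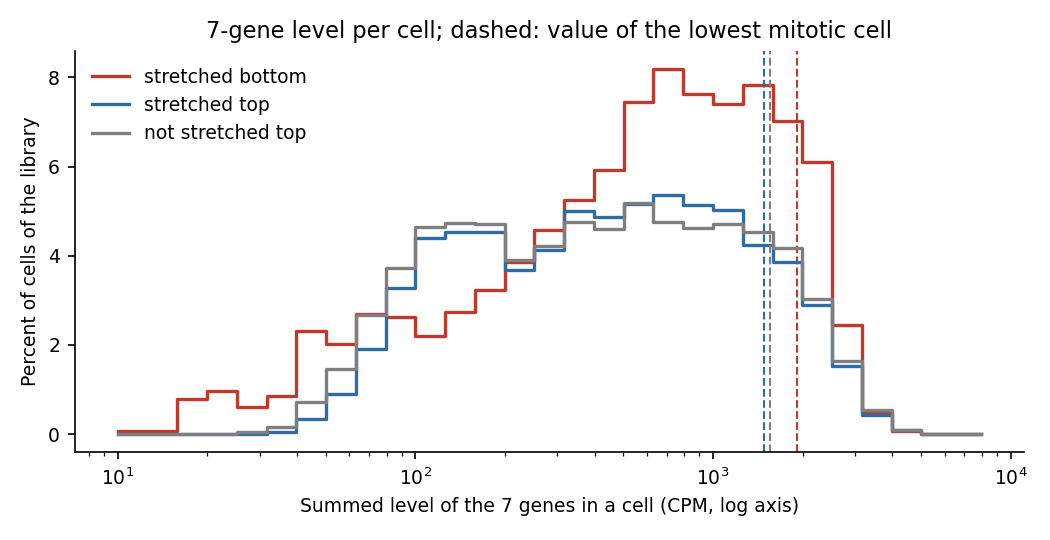
Percent of cells of each library (y axis) by the summed level of the 7 rule genes in a cell (x axis, CPM, log scale); cells with 0 UMIs of the 7 genes are not drawn. The dashed lines mark the lowest mitotic cell of each library, at 1913.42 CPM in stretched bottom, 1482.66 CPM in stretched top and 1551 CPM in not stretched top; cells with 0 UMIs were 4.58%, 28.6% and 26.3% of the libraries.

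Mitotic cells differed from the rest in more than the 7 genes. Their median mitochondrial share was 3.74% against 4.18% in the rest of the stretched bottom library, 8.45% against 10.6% in stretched top and 7.69% against 10.1% in not stretched top. The median share from ribosomal protein genes was 22.5% against 23.0%, 21.3% against 23.8% and 19.8% against 21.9% in the same order. The part of these differences in the results was not tested, apart from the alternative totals given below. Genes found per cell at a depth of 5000 UMIs were 2055 against 2055.5, 2110.5 against 1989 and 2213 against 2122. The deposited matrices share some barcodes: 64 cells over the filter carry a barcode found in both top channel libraries, and 1 of these was mitotic in both; the stretched bottom library shared 4 with stretched top and 5 with not stretched top.

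The label was set beside mitosis genes that the rule did not use. Their lists were chosen with earlier results of these data known, and they belong to the same cell cycle stages as the rule genes. This is thus a description and no independent check. The summed level of the 171 genes of 8 mitosis lists had a median of 32141 CPM in stretched bottom mitotic cells, against 20204 CPM in the rest. It was 27014 against 10948 CPM in stretched top and 27813 against 10285 CPM in not stretched top. Of the mitotic cells, 103 (63.2%), 1057 (61.5%) and 940 (63.2%) were also in the top 10% of their library by these other genes. By the DNA replication list, 0, 24 (1.40%) and 14 (0.941%) were in the top 10%. The genes of the mitosis lists stood high in the cells that carry the name. They mark G2 and mitosis together.

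The 7 rule genes are given first, as a description, since they chose the cells. A level is the sum of a gene's UMIs over a set of cells, scaled to CPM by all UMIs of that set. CCNB1, cyclin B1, stood at 668 CPM in mitotic cells and 161 CPM in the rest of the stretched bottom library. It stood at 584 and 92.5 CPM in stretched top, and at 564 and 90.2 CPM in not stretched top. CDC20, which activates the anaphase-promoting complex, stood at 435 and 147 CPM in stretched bottom, 331 and 73.0 CPM in stretched top, and 364 and 81.2 CPM in not stretched top. In all 3 libraries both genes lay well above the rest, and the ratio of the highest to the lowest library was smaller for mitotic levels than for levels of the rest.

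PLK1, a kinase of spindle assembly and mitotic entry, stood at 206 and 48.3 CPM in mitotic cells and the rest of stretched bottom, 167 and 25.9 CPM in stretched top, and 190 and 29.8 CPM in not stretched top. AURKA, the Aurora A kinase of the spindle poles, stood at 145 and 33.4 CPM, 130 and 19.6 CPM, and 128 and 19.7 CPM. CENPF, a kinetochore protein, stood at 411 and 131 CPM, 443 and 87.9 CPM, and 473 and 95.2 CPM. CENPF was the 1 rule gene whose mitotic level was lowest in stretched bottom. CCNB2, cyclin B2, stood at 230 and 69.2 CPM, 197 and 39.9 CPM, and 192 and 38.9 CPM. HMMR, a spindle-associated hyaluronan receptor, stood at 276 and 85.8 CPM, 235 and 45.3 CPM, and 241 and 42.7 CPM.

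Choosing cells by these counts inflates the same counts, so each cell's UMIs were split at random into 2 equal sets, the cells chosen on one set and the levels measured on the other. After adding 1 CPM to both levels, the log2 ratio of mitotic cells over the rest was then 1.95 for CCNB1 in stretched bottom, 2.38 in stretched top and 2.43 in not stretched top. On the full counts it was 2.05, 2.65 and 2.63. AURKA gave 1.89, 2.33 and 2.39 on the unused set, against 2.09, 2.67 and 2.65 on the full counts. PLK1 gave 1.88, 2.38 and 2.41, against 2.07, 2.65 and 2.63. The ratios were smaller on the unused set for every rule gene in every library, and the lowest was 1.5, for CDC20 in stretched bottom.

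**Figure D2:**
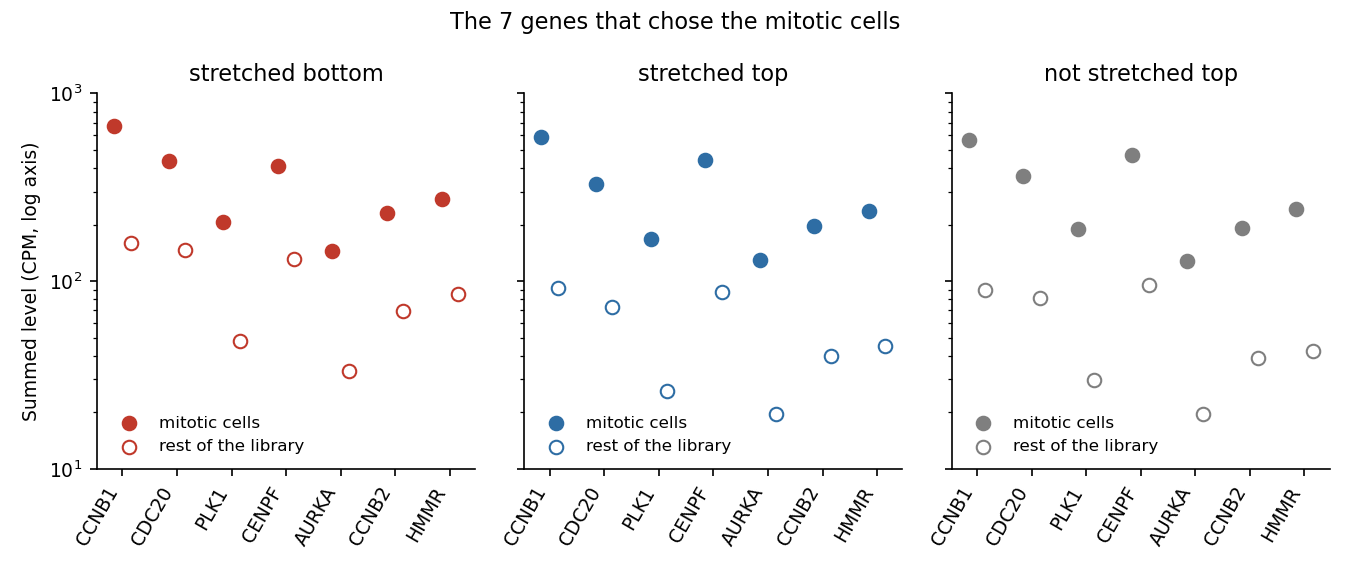
Summed level (y axis, CPM, log scale) of the 7 rule genes in mitotic cells (filled) and in the rest of the same library (open), 1 panel per library. Mitotic levels run from 128 CPM for AURKA to 668 CPM for CCNB1, and each filled point lies above its open partner; the genes chose the cells.

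Mitotic cells were not alike in the mix of the 7 genes. In stretched bottom, 146 of 163 cells (89.6%) held UMIs of all 7, against 817 (47.6%) in stretched top and 846 (56.9%) in not stretched top, where cells were shallower. CCNB1 gave the most UMIs of the 7 in 69.9%, 58.8% and 51.0% of mitotic cells. CENPF led in 19.0%, 24.4% and 28.98%, and CDC20 in 8.59%, 12.2% and 14.1%. PLK1 led in at most 1.82% of the mitotic cells of a library and AURKA in at most 0.471%. CCNB1 made up a median of 28.7%, 27.8% and 25.7% of a mitotic cell's 7-gene UMIs, and CENPF a median of 16.5%, 19.8% and 20%. UMI counts at the 3′ end do not scale with transcript length, and capture can differ between genes, so these shares compare cells rather than genes.

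At an equal depth of 5000 UMIs per cell, CCNB1 was found in 93.9% of stretched bottom mitotic cells, 93.5% of stretched top and 93.9% of not stretched top ones. In the 50% of cells with the lowest 7-gene share it was found in 16.9%, 5.89% and 5.43%. AURKA was found in 54.0%, 44.8% and 43.1% of mitotic cells and in 3.79%, 1.58% and 1.55% of the lowest 50%. The lowest 50% were picked on the same genes and are no independent background. Free RNA was not measured directly. Barcodes of at least 500 but under 1000 UMIs, which were not used, held the 7 genes at 622, 772 and 803 CPM in the order above.

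Across all genes, few differed between mitotic cells and the rest by the threshold used. Genes with at least 10 CPM in either set were compared, and called at 1.5-fold. A gene that reached 10 CPM in the rest alone could not be called higher. In the same way, a gene that reached it in mitotic cells alone could not be called lower. This limit holds for the counts of the lists below too. In stretched bottom, 201 of 8343 genes were higher in mitotic cells (2.41%) and 304 were lower (3.64%). In stretched top, 285 of 8857 were higher (3.22%) and 120 lower (1.35%). In not stretched top, 283 of 9284 were higher (3.05%) and 252 lower (2.71%). The median log2 ratio of all genes was −0.01, 0.08 and 0.04. With totals that leave out mitochondrial and ribosomal protein genes, the counts of higher and lower genes were 210 and 428, 239 and 282, and 244 and 478, so that the split between directions depends on the scaling in both top channel libraries; with median of ratios scaling it was 244 and 240 in stretched bottom.

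The same 176 genes were higher in mitotic cells of all 3 libraries. They made up 87.6% of the genes higher in stretched bottom, 61.8% in stretched top and 62.2% in not stretched top, and 91 of them were rule genes or members of the 8 mitosis lists. Another 46 genes were lower in all 3, which is 15.1%, 38.3% and 18.3% of each library's lower genes, and 0 of these were in a mitosis list. Over the mitosis lists together, 85 of 169 measured genes were higher and 1 lower in stretched bottom, 106 of 168 higher and 0 lower in stretched top, and 110 of 168 higher and 0 lower in not stretched top. Their median log2 ratios were 0.59, 0.87 and 0.92, beside the medians of all genes above.

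Genes of mitotic entry were higher in 8 of 19, 9 of 18 and 9 of 18, and CDC25A, a phosphatase that also acts at the start of S phase, was the 1 lower, in stretched bottom at a log2 ratio of −0.84. GTSE1, a microtubule-binding protein of G2, stood at 130 CPM in mitotic cells and 38.2 CPM in the rest of stretched bottom, 3.40-fold higher (95% interval 3.17 to 3.66). In stretched top it stood at 117 and 24.5 CPM, 4.78-fold higher (4.55 to 5.02), and in not stretched top at 129 and 28.0 CPM, 4.60-fold higher (4.39 to 4.81). BORA, the Aurora A cofactor that helps to activate PLK1, stood at 41.5 and 10.6 CPM, 32.7 and 7.41 CPM, and 38.0 and 8.69 CPM in the same order. CCNA2, cyclin A2, which acts from S phase on and is destroyed early in mitosis, stood at 161 and 57.6 CPM, 121 and 31.1 CPM, and 120 and 32.3 CPM. CKS2, a small subunit of cyclin-dependent kinases, stood at 1415 and 578 CPM, 1066 and 346 CPM, and 979 and 290 CPM. The fold of each of these 4 genes was smallest in stretched bottom.

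Of the kinases and spindle checkpoint genes, 10 of 20, 14 of 20 and 13 of 20 were higher. NEK2 stood at 89.7 and 18.6 CPM in mitotic cells and the rest of stretched bottom, 4.82-fold higher (4.40 to 5.29). It stood at 84.0 and 14.3 CPM in stretched top, 5.87-fold higher (5.53 to 6.24), and at 91.2 and 14.8 CPM in not stretched top, 6.14-fold higher (5.8 to 6.51). BUB1, a kinase of the checkpoint that holds anaphase until every chromosome is attached, stood at 101 and 37.7 CPM, 87.7 and 22.8 CPM, and 92.9 and 24.7 CPM. TTK, a second kinase of that checkpoint, stood at 98.4 and 41.0 CPM, 76.1 and 22.2 CPM, and 76.9 and 21.4 CPM. For each of these 3 kinases the ratio of the highest to the lowest library was smaller for mitotic levels than for levels of the rest, which were highest in stretched bottom.

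The list of the anaphase-promoting complex had the lowest medians of the mitosis lists, 0.12, 0.32 and 0.33, with 6, 6 and 7 of 21 genes higher. The ubiquitin-conjugating enzymes that work with the complex were among the higher ones. UBE2C stood at 1090 and 346 CPM, 760 and 207 CPM, and 668 and 156 CPM, and UBE2S at 2210 and 990 CPM, 1495 and 513 CPM, and 1440 and 469 CPM. PTTG1, securin, the inhibitor of separase, stood at 643 and 248 CPM, 598 and 164 CPM, and 547 and 158 CPM. CDC27, which has near-identical pseudogene copies and so uncertain counts, was the one core subunit past 1.5-fold, with log2 ratios of 0.71, 0.66 and 0.63, and is named after its values were seen. Both enzymes and securin had their highest mitotic level in stretched bottom.

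Motors, spindle and cytokinesis genes had the highest medians. Of 14 mitotic kinesins, 12, 13 and 13 were higher, and of 27 spindle and centrosome genes 19, 22 and 23. KIF20A, a kinesin of the central spindle, stood at 37.5 and 8.41 CPM in mitotic cells and the rest of stretched bottom, 4.46-fold higher (3.87 to 5.13). It stood at 44.8 and 6.74 CPM in stretched top, 6.64-fold higher (6.10 to 7.23), and at 45.4 and 7.26 CPM in not stretched top, 6.25-fold higher (5.76 to 6.78). PIF1, a helicase gene held in the spindle list for its cell cycle pattern, stood at 30.6 and 6.93 CPM, 26.1 and 3.03 CPM, and 33.0 and 3.99 CPM, and its 8.62-fold (7.65 to 9.71) in stretched top was above that of every rule gene. ASPM, a spindle pole protein, stood at 149 and 44.3 CPM, 129 and 27.1 CPM, and 161 and 33.0 CPM. CENPE, the kinesin of the kinetochore, stood at 88.2 and 37.0 CPM, 77.5 and 18.8 CPM, and 91.2 and 21.8 CPM.

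Centromere and kinetochore genes were higher in 14, 21 and 23 of 34. CENPA, the histone H3 variant of the centromere, stood at 112 and 30.1 CPM in mitotic cells and the rest of stretched bottom, 89.8 and 18.2 CPM in stretched top, and 95.2 and 20.8 CPM in not stretched top. SGO2, a shugoshin that protects cohesion, stood at 125 and 38.3 CPM, 88.4 and 19.1 CPM, and 96.1 and 19.9 CPM. Chromatin genes were higher in 9, 12 and 13 of 21. TOP2A, the topoisomerase that untangles chromosomes, stood at 201 and 74.5 CPM, 228 and 58.3 CPM, and 239 and 57.8 CPM. MKI67, the proliferation marker that coats mitotic chromosomes, stood at 266 and 106 CPM, 282 and 88.1 CPM, and 355 and 111 CPM. Cytokinesis genes were higher in 10, 12 and 12 of 16, among them KIF23, a centralspindlin motor, at 170 and 73.2 CPM, 117 and 34.0 CPM, and 135 and 38.3 CPM. The counts of PRC1, a bundler of the central spindle, are uncertain, since 84.8% of its 3′ end overlaps another annotated gene.

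Of the 10 genes outside all lists with the largest ratio in every library, the following are examples. GAS2L3, a cytoskeletal linker protein, stood at 59.7 and 15.3 CPM in stretched bottom, 58.8 and 12.0 CPM in stretched top, and 66.4 and 14.7 CPM in not stretched top. KNSTRN, kinastrin, a kinetochore-associated protein, stood at 157 and 47.4 CPM, 103 and 22.8 CPM, and 109 and 23.4 CPM. KPNA2, an importin, stood at 821 and 272 CPM, 609 and 161 CPM, and 659 and 162 CPM. TNFAIP8L1, of the TNFAIP8 family, stood at 34.8 and 9.01 CPM, 32.6 and 9.79 CPM, and 36.9 and 10.6 CPM, and was 3.86-fold (3.34 to 4.45), 3.33-fold (3.05 to 3.64) and 3.48-fold (3.21 to 3.77) higher. APOLD1 and AC099850.2 were also among the 10 such genes with the largest ratio, but 100% of their 3′ ends overlaps another annotated gene, so their counts are uncertain.

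**Figure D3:**
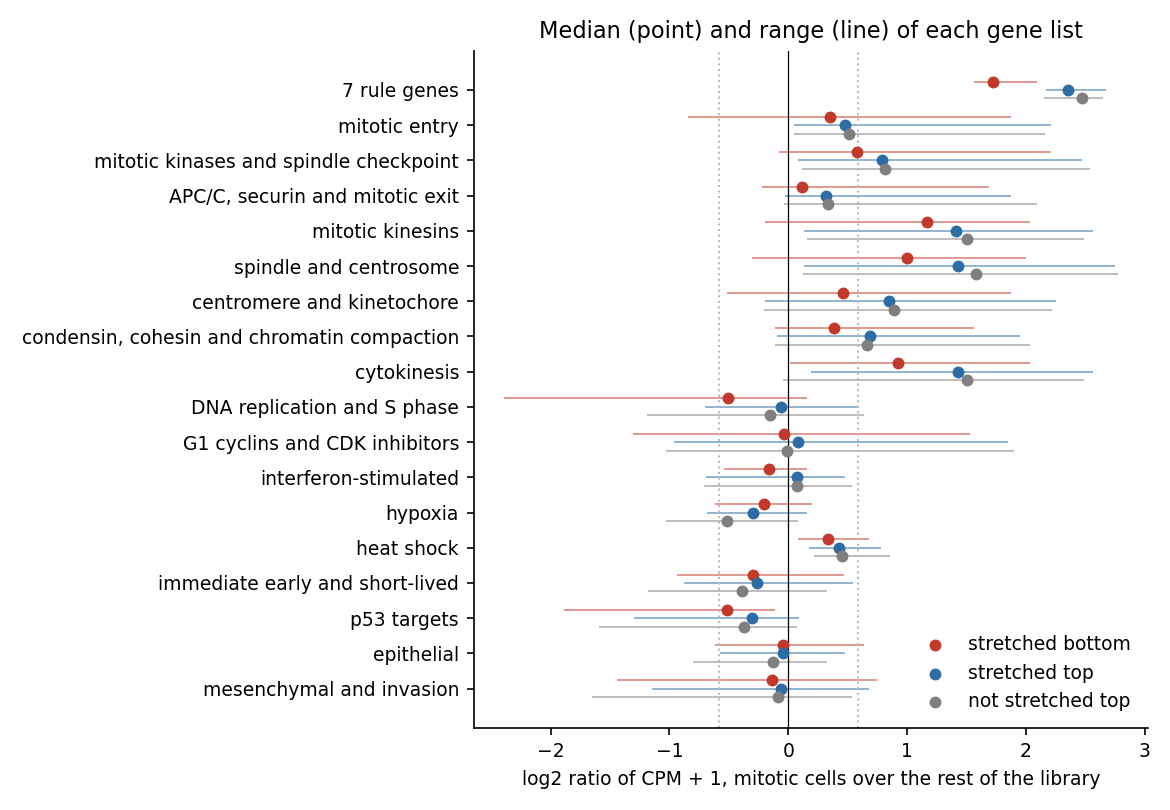
Median (point) and range (line) of the log2 ratio of CPM + 1, mitotic cells over the rest of the same library (x axis), for the rule genes and the gene lists (y axis), by library; dotted lines mark 1.5-fold. The 8 mitosis lists have medians above 0 in each library, up to 1.58 for spindle and centrosome genes in not stretched top, while p53 targets and DNA replication genes in stretched bottom have medians of −0.51.

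Of the p53 targets, 7 of 19, 5 of 19 and 5 of 19 were lower in mitotic cells and 0 higher, with medians of −0.51, −0.31 and −0.37. The shares of all genes that were lower were 3.64%, 1.35% and 2.71%. GDF15, a stress cytokine, stood at 25 CPM in mitotic cells and 95.2 CPM in the rest of stretched bottom, 3.81-fold lower (3.31 to 4.40), with 33% of its mitotic UMIs from 1 cell. It stood at 42.1 and 105 CPM in stretched top, 2.49-fold lower (2.33 to 2.67), and at 34.5 and 106 CPM in not stretched top, 3.07-fold lower (2.86 to 3.29). CDKN1A, the inhibitor p21 of cyclin-dependent kinases, stood at 39.5 and 99.2 CPM, 39.1 and 77.1 CPM, and 32.2 and 67.0 CPM, with 21% of its stretched bottom mitotic UMIs from 1 cell. BBC3, which encodes the apoptosis inducer PUMA, stood at 5.64 and 18.3 CPM, 10.4 and 21.6 CPM, and 8.27 and 25.6 CPM. In stretched bottom and not stretched top BBC3 reached 10 CPM in the rest alone, so it could not be called higher there. All 3 genes were lower in mitotic cells of every library. HCT116 carries wild-type p53.

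G1 cyclins and inhibitors of cyclin-dependent kinases did not go one way, with 3 of 14, 2 of 15 and 2 of 15 higher and 1 lower in each library, CDKN1A. Of all genes 2.41%, 3.22% and 3.05% were higher and 3.64%, 1.35% and 2.71% lower. Counts this small describe single genes and not the list. CDKN3, a phosphatase that acts on CDK1 and CDK2, stood at 242 and 83.5 CPM in mitotic cells and the rest of stretched bottom, 191 and 52.2 CPM in stretched top, and 199.9 and 52.7 CPM in not stretched top. CDKN2D, which encodes the CDK4 and CDK6 inhibitor p19, stood at 28.6 and 15.0 CPM, 25.8 and 15.7 CPM, and 32.6 and 18.4 CPM. Both were higher in mitotic cells of every library, and CDKN1A, above, was lower.

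Of the genes outside all lists that were lowest in mitotic cells of every library, MAML3, a coactivator of Notch signalling, stood at 7.60 and 22.7 CPM, 20.8 and 48.4 CPM, and 18.7 and 57.6 CPM. PNRC1, a nuclear receptor coactivator, stood at 12.9 and 27.8 CPM, 36.8 and 70.3 CPM, and 38.0 and 78.7 CPM. HIST1H1E, a linker histone made in S phase, stood at 11.2 and 54.6 CPM, 14.0 and 25.6 CPM, and 14.8 and 33.5 CPM. With cells ranked by the mitosis lists in place of the rule genes, HIST1H1E was higher in mitotic cells of both top channel libraries, at log2 ratios of 0.41 and 0.42, and with the top 20% of each library it was 0.04 in stretched top, so its direction there depends on how the cells were chosen. CITED1, whose 3′ end overlaps another annotated gene by 67.9%, stood at 4.41 and 23.0 CPM, 9.94 and 23.1 CPM, and 5.23 and 12.7 CPM, with 36% of its stretched bottom mitotic UMIs from 1 cell.

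The ratio of mitotic cells over the rest for DNA replication genes differed between the libraries. Summed over all cells of a set, the list stood at 2504, 2437 and 2687 CPM in mitotic cells of stretched bottom, stretched top and not stretched top. In the rest it stood at 3059, 2234 and 2489 CPM. The level of the rest thus varied more between libraries than that of mitotic cells. The counts of list genes stand beside 3.64%, 1.35% and 2.71% of all genes lower in the same order, and 2.41%, 3.22% and 3.05% higher. A count of 1 or 2 describes single genes and not the list. In stretched bottom 17 of 40 were lower and 0 higher around a median of −0.51. In stretched top 2 of 38 were lower and 1 higher around a median of −0.06, and in not stretched top 5 of 40 were lower and 2 higher around a median of −0.15. The last 2 medians have no settled direction: over 21 settings they ran from −0.22 to 0.20 in stretched top and from −0.35 to 0.10 in not stretched top, with a changed sign in 3 and 5. UNG, a uracil glycosylase of replicating cells, stood at 21.0 and 54.5 CPM in stretched bottom, 27.2 and 43.6 CPM in stretched top, and 20.8 and 39.7 CPM in not stretched top. DTL, the adaptor that clears CDT1 in S phase, stood at 13.0 and 33.1 CPM, 21.7 and 31.5 CPM, and 16.3 and 31.2 CPM. CCNE1, cyclin E1 of the G1 to S transition, stood at 6.13 and 13.4 CPM, 14.8 and 20.7 CPM, and 12.3 and 20.03 CPM. The summed level of the list per cell had a median of 2447 CPM in mitotic cells and 3202 CPM in the rest of stretched bottom, but 2300 and 1619 CPM in stretched top, and 2611 and 1566 CPM in not stretched top. By this median per cell, mitotic cells stood below the rest in stretched bottom and above it in both top channel libraries. The rest was spread widely there. Its lower and upper quartiles were 561.7 and 3259 CPM in stretched top, against 1803 and 2902 CPM in mitotic cells. In not stretched top they were 594.5 and 3599 CPM, against 2024 and 3166 CPM. The upper quartile was thus higher in the rest of both top channel libraries, so the medians do not place mitotic cells above all other cells.

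The rest mixes all other cell cycle stages, and finer classes of the 7-gene share separate some of them. HIST1H1E stood at 43.1 CPM in the lowest 50% of stretched bottom cells, 79.1 CPM in the next 30%, 29.2 CPM in the 80 to 90 class, 14.4 CPM in the 90 to 95 class and 7.40 CPM in the top 5%. In stretched top it ran 11.3, 39.8, 34.9, 17.1 and 10.5 CPM, and in not stretched top 14.9, 53.7, 39.7, 17.9 and 11.4 CPM. It was thus highest in a middle class, and the lowest 50% and the top 5% of the top channel libraries stood close together. CDKN1A was lower in each successive class of every library, in stretched bottom at 117, 89.6, 54.9, 49.2 and 28.0 CPM. CCNA2 was highest in the top 5% of each library, at 164, 139 and 135 CPM, against 27.7, 8.96 and 8.16 CPM in the lowest 50%. These classes use the genes of the rule for ranking and describe its slope.

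**Figure D4:**
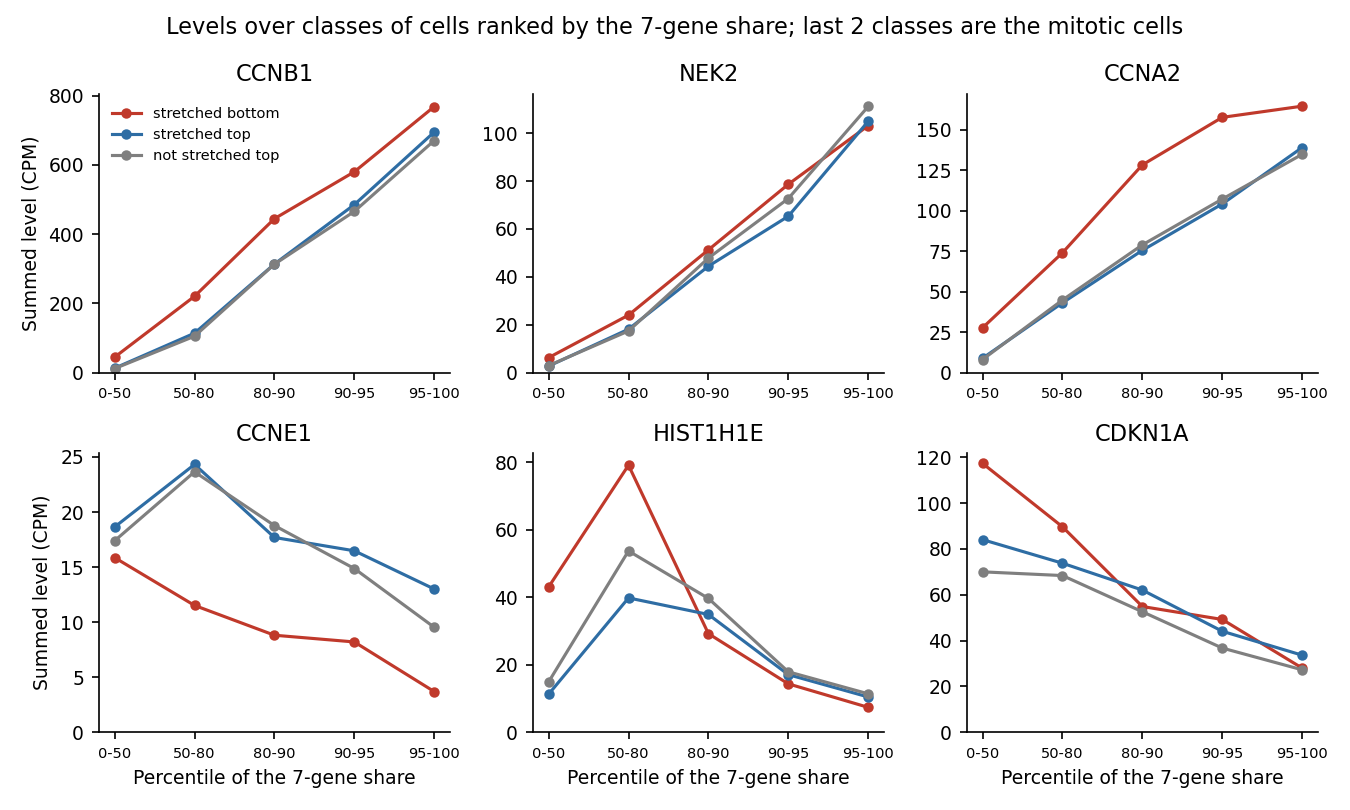
Summed level (y axis, CPM, from 0) of 6 genes over classes of cells ranked by the 7-gene share within each library (x axis, percentile); the last classes, 90-95 and 95-100, are the mitotic cells. CCNB1, a rule gene, NEK2 and CCNA2 climb over the classes, HIST1H1E is highest in the 50-80 class, at 79.1, 39.8 and 53.7 CPM, and CDKN1A is highest in the lowest class of every library.

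Stress and signalling genes differed in smaller steps. Counts here and in the next paragraph stand beside 2.41%, 3.22% and 3.05% of all genes higher in mitotic cells. The shares of all genes lower were 3.64%, 1.35% and 2.71%. In lists this short, a count of 1 describes a single gene and not the list. Of 13 heat shock genes, 1, 3 and 3 were higher and 0 lower. HSPA8, the constitutive HSC70 chaperone, stood at 1336 and 911 CPM, 775 and 461 CPM, and 963 and 533 CPM. Of 25 immediate early genes, 3, 4 and 7 were lower and 0 higher. JUN stood at 74.1 and 93.1 CPM in stretched bottom, 27.3 and 51.0 CPM in stretched top, and 29.8 and 68.9 CPM in not stretched top, which is 1.26-fold (1.16 to 1.37), 1.87-fold (1.72 to 2.03) and 2.31-fold (2.14 to 2.50) lower. Of the hypoxia genes, 2 of 14, 1 of 16 and 5 of 18 were lower and 0 higher. NDRG1, a hypoxia gene, stood at 37.0 and 50.1 CPM, 98.6 and 141 CPM, and 58.3 and 120 CPM. Of the interferon-stimulated genes, 0 of 10, 1 of 23 and 3 of 25 were lower and 0 higher. RGS6, a regulator of G protein signalling outside all lists, stood at 18.3 and 34.5 CPM, 39.1 and 101 CPM, and 53.4 and 148 CPM.

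EPCAM, the epithelial adhesion molecule, stood at 486 CPM in mitotic cells and 504 CPM in the rest of stretched bottom, 391 and 390 CPM in stretched top, and 379 and 390 CPM in not stretched top. VIM, vimentin, stood at 18.6 and 28.1 CPM in stretched bottom, 12.3 and 7.33 CPM in stretched top, and 8.62 and 5.56 CPM in not stretched top. Of the epithelial markers that reached 10 CPM, 1 of 12, 0 of 11 and 0 of 11 were higher in mitotic cells and 1, 0 and 1 lower. ELF3, an epithelial transcription factor, stood at 16.5 and 26.0 CPM, 49.3 and 74.1 CPM, and 55.0 and 96.7 CPM. Of 13 mesenchymal and invasion genes, 1, 1 and 0 were higher and 1, 1 and 4 lower, beside the shares of all genes given above. Of 10 endothelial markers EGFL7 alone reached 10 CPM, at 102, 94.9 and 123 CPM in mitotic cells, and of the fibroblast and leukocyte markers 0 did, with summed levels in mitotic cells of 4.78, 7.91 and 11.3 CPM for fibroblast and 4.29, 7.54 and 6.65 CPM for leukocyte markers. Cells with at least 5 UMIs of APOA1, APOA2, FABP1 and TTR, liver and gut secretory genes, were 0, 32 (1.86%) and 20 (1.35%) of mitotic cells, against 0, 381 (2.46%) and 363 (2.71%) of the rest. Of the 6 genes that mark them, 0 reached 10 CPM in stretched bottom, 2 of 6 were lower in mitotic cells of stretched top and 6 of 6 in not stretched top, where 4 of the 6 reached 10 CPM in the rest alone.

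A cut within each library fixes the share of mitotic cells, so the share past a common cut was measured with every cell thinned to 5000 UMIs. The cut was 9 UMIs of the 7 genes, the smallest number reached by at most 10% of stretched top cells. It was reached by 239 of 1637 stretched bottom cells (14.6%, Clopper-Pearson 95% interval 12.9 to 16.4) and by 1356 of 17182 stretched top cells (7.89%, 7.49 to 8.30). In the not stretched top library 1289 of 14870 cells reached it (8.67%, 8.22 to 9.13). Without thinning, at the CPM cut of stretched top, the shares were 18.4%, 10.0% and 10.8%. The stretched bottom share was the highest, and the stretched top share the lowest, in each of the 7 alternatives tried. With 1 library per group, whether these differences exceed the spread between chips was not tested.

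Mitotic cells of the stretched bottom and stretched top libraries differed in many genes. Of 8739 genes, 399 were higher in stretched bottom mitotic cells (4.57%) and 1263 lower (14.5%), around a median log2 ratio of −0.10. With TMM scaling, which moves that median to 0.04, 808 were higher and 832 lower, and with median of ratios scaling 969 and 769, so the split between directions depends on the scaling. Of the 7 rule genes 0 passed 1.5-fold in mitotic cells, where their log2 ratios ran from −0.11 to 0.39. In the rest of the cells 6 of 7 were higher in stretched bottom, between 0.57 and 1.00, in a background of 740 higher (8.35%) and 951 lower (10.7%) of 8867 genes. Over the mitosis lists together, 7 of 168 genes were higher and 4 lower in mitotic cells, against 56 of 165 higher and 1 lower in the rest. Their median log2 ratios were 0.13 and 0.46, beside −0.10 and 0.002 for all genes. The count of higher list genes in mitotic cells is near the 4.57% of all genes. The rule takes the top of each library by the 7 rule genes, so their levels in mitotic cells are not independent of it. Genes of the mitosis lists were higher in the chosen cells of each library too. Levels of the lists in mitotic cells are thus not independent of the rule either, and their small difference is no separate result.

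The members of the mitosis lists that did pass were mostly higher in the rest too. PSRC1, a microtubule regulator, stood at 71.2 CPM in stretched bottom and 38.1 CPM in stretched top mitotic cells, 1.87-fold higher (1.68 to 2.08), and at 17.5 and 8.73 CPM in the rest. DEPDC1 stood at 218 and 127 CPM in mitotic cells and 111 and 40.5 CPM in the rest, with log2 ratios of 0.78 and 1.44. HMGN2, a nucleosome-binding protein, stood at 1021 and 558 CPM in mitotic cells and 759 and 346 CPM in the rest. UBALD2 was lower in both sets, at 50.6 and 109 CPM in mitotic cells and 16.5 and 33.5 CPM in the rest. CDC25C, the phosphatase that switches on CDK1, stood at 31.1 and 50.7 CPM in mitotic cells, a log2 ratio of −0.69, and at 13.8 and 15.9 CPM in the rest, a log2 ratio of −0.20.

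Interferon-stimulated genes were lower in stretched bottom in mitotic cells and in the rest alike. The summed level of the 30 listed genes, with no minimum, was 998 CPM in stretched bottom and 5678 CPM in stretched top mitotic cells, and 1137 and 5752 CPM in the rest. In mitotic cells 23 of them were compared, but 15 reached 10 CPM in stretched top alone and so could not be called higher; of the 8 that reached it in both libraries, 7 were lower and 0 higher. In the rest 14 of 23 reached it in stretched top alone, and of the other 9 there were 8 lower. IFI27 stood at 14.9 CPM in stretched bottom and 463 CPM in stretched top mitotic cells, 30.99-fold lower (25.9 to 37.4), and at 18.3 and 575 CPM in the rest. IFI6 stood at 55.4 and 1011 CPM in mitotic cells, 18.3-fold lower (16.6 to 20.1), and at 49.6 and 1061 CPM in the rest. Heat shock genes went the other way, with 6 of 13 higher and 0 lower in mitotic cells, beside 4.57% and 14.5% of all genes. HSPA1B, an inducible HSP70, stood at 250 and 46.1 CPM in mitotic cells and 168 and 29.3 CPM in the rest. Its counts are uncertain, since 49.8% of its 3′ end overlaps another annotated gene and a near-identical copy, HSPA1A, exists. DNAJB1, an HSP40 cochaperone, stood at 137 and 61.8 CPM in mitotic cells and 85.2 and 40.9 CPM in the rest.

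In the mesenchymal and invasion list 5 of 14 genes were higher and 2 lower in stretched bottom mitotic cells. Of all genes 4.57% were higher and 14.5% lower, so the count of lower ones is near the share of all genes. DKK1, a secreted WNT antagonist, stood at 545 CPM in stretched bottom and 191 CPM in stretched top mitotic cells, 2.86-fold higher (2.74 to 2.98), and at 538 and 154 CPM in the rest. TNFRSF12A, the TWEAK receptor, stood at 302 and 144 CPM in mitotic cells and 268 and 110 CPM in the rest. VIM stood at 18.6 and 12.3 CPM in mitotic cells, a log2 ratio of 0.56, and at 28.1 and 7.33 CPM in the rest, a log2 ratio of 1.81. FN1, fibronectin, stood at 1.35 and 34.1 CPM in mitotic cells, where 10 stretched bottom cells held a UMI, and at 5.56 and 40.6 CPM in the rest. It reached 10 CPM in stretched top alone, so it could not be called higher in stretched bottom. JUN stood at 74.1 and 27.3 CPM in mitotic cells, a log2 ratio of 1.41, and at 93.1 and 51.0 CPM in the rest, a log2 ratio of 0.86.

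The counts of the next lists stand beside 4.57% of all genes higher and 14.5% lower in mitotic cells, and 8.35% and 10.7% in the rest, and a gene that reached 10 CPM in stretched top alone cannot count as higher. Of 15 hypoxia genes 8 were lower and 0 higher in stretched bottom mitotic cells, and of the 13 that reached 10 CPM in both libraries 6 were lower. NDRG1 stood at 37.0 and 98.6 CPM in mitotic cells and 50.1 and 141 CPM in the rest, and BNIP3L, a mitophagy receptor, at 20.2 and 52.0 CPM and at 25.4 and 71.9 CPM. Of 15 G1 genes 5 were lower and 0 higher, among them CDKN1C, which encodes the inhibitor p57, at 3.55 and 18.4 CPM in mitotic cells and 4.50 and 22.8 CPM in the rest. Of 12 epithelial markers 1 was higher, at a log2 ratio of 1.13, and 3 lower. Their median log2 ratio was 0.20, beside −0.10 for all genes. The summed level of the 16 listed markers was 4811 CPM in stretched bottom and 4225 CPM in stretched top mitotic cells. Among the lower ones, ELF3 stood at 16.5 and 49.3 CPM in mitotic cells and 26.0 and 74.1 CPM in the rest. CDH1, E-cadherin, also lower in mitotic cells, stood at 18.6 and 39.1 CPM and at 26.9 and 40.4 CPM. Of 37 DNA replication genes 4 were lower and 0 higher in mitotic cells, and of 41 in the rest 10 were higher and 2 lower; the count of lower ones in mitotic cells is below the share of all genes. Of 25 immediate early genes 6 were higher and 4 lower, with the lower ones near the share of all genes. Of 17 p53 targets 0 were higher and 4 lower, and 2 of these 4 reached 10 CPM in stretched top alone. The summed level of the 6 genes of APOA1-high cells was 1.84 CPM in stretched bottom and 205 CPM in stretched top mitotic cells; 0 of the 6 reached 10 CPM in stretched bottom, so a count of them has no meaning here.

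Some of the largest ratios came from single cells: 99% of the SPRR2D UMIs of stretched bottom mitotic cells lay in 1 cell and all of those of CLEC4D in 1 cell, so these describe a cell and not the channel. Across the 8575 genes compared in both sets of cells, 346 were higher in stretched bottom in mitotic cells and in the rest, which is 346 of 391 by mitotic cells and 346 of 716 by the rest. Another 719 were lower in both, of 1240 by mitotic cells and 838 by the rest, and 0 went opposite ways. The ratios of the sets differed by at least 1.5-fold for 158 genes. HIST1H1E was the named gene with the largest gap below the rest, at 11.2 and 14.0 CPM in mitotic cells, a log2 ratio of −0.30, and 54.6 and 25.6 CPM in the rest, a log2 ratio of 1.06. DTL stood at −0.70 in mitotic cells and 0.07 in the rest on the same scale, and EXO1, an exonuclease of repair and replication, at −0.48 and 0.36. For these 3 genes of S phase the difference between mitotic cells and the rest was larger in stretched bottom than in stretched top, which was not tested.

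**Figure D5:**
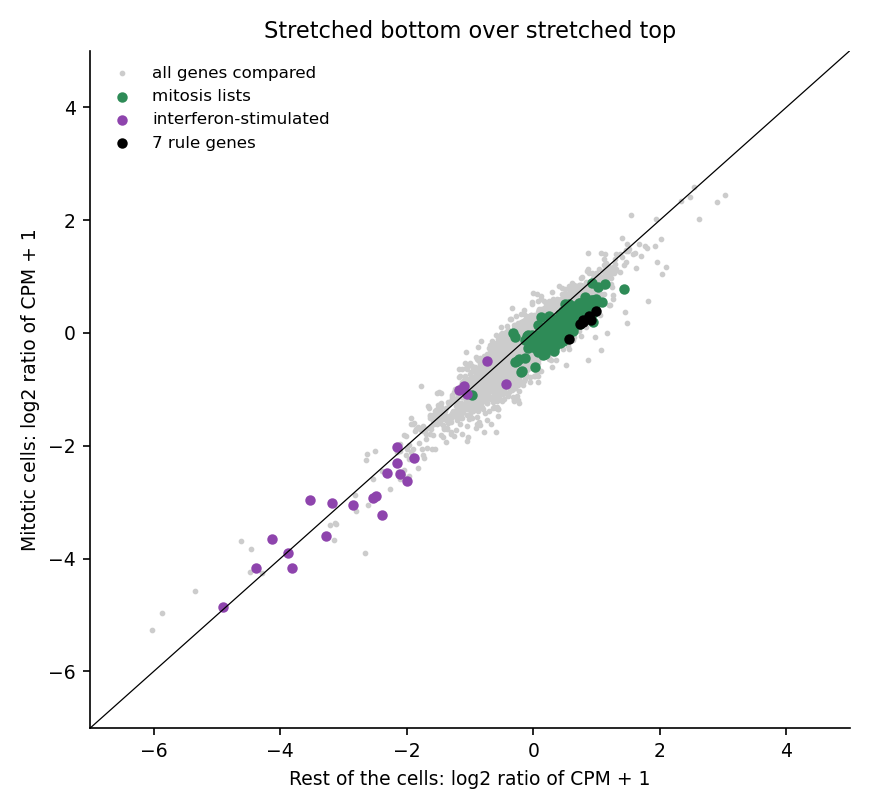
Log2 ratio of CPM + 1, stretched bottom over stretched top, in the rest of the cells (x axis) and in mitotic cells (y axis), 1 point per gene; the line marks equal ratios. The rule genes lie between −0.11 and 0.39 on the y axis and between 0.57 and 1.00 on the x axis, below the line, and interferon-stimulated genes lie along it down to −4.86 in mitotic cells.

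Stretched and not stretched mitotic cells of the top channel were close. Of 9030 genes, 31 were higher with stretch (0.343%) and 75 lower (0.831%), around a median log2 ratio of −0.11; with TMM scaling, which moves that median to 0.01, 50 were higher and 20 lower, and with median of ratios scaling 60 and 19, so the split between directions depends on the scaling. In the rest of the cells 15 of 9114 were higher (0.165%) and 73 lower (0.801%). Of the 168 measured genes of the mitosis lists 0 passed 1.5-fold in either direction, and the rule genes ran from −0.18 to 0.05 on the log2 scale. That count is near the shares of all genes, 0.343% and 0.831%, so it is no result about mitosis genes. Both sets were also chosen by genes of mitosis. FZR1, the other activator of the anaphase-promoting complex, had the lowest ratio of these genes, at 17.8 CPM in stretched and 27.0 CPM in not stretched mitotic cells, a log2 ratio of −0.57. MKI67 stood at 282 and 355 CPM, −0.33, and KIF14, a cytokinesis kinesin, at 81.2 and 103 CPM, −0.34.

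Stress and interferon genes were among those that passed, with 6 of 24 interferon-stimulated genes lower and, of 18 hypoxia genes, 4 lower and 1 higher. RBM3, a cold-inducible RNA-binding protein, stood at 87.1 CPM in stretched and 219 CPM in not stretched mitotic cells, 2.51-fold lower (2.38 to 2.65), and at 84.8 and 195 CPM in the rest. BST2, tetherin, stood at 47.2 and 112 CPM in mitotic cells, 2.36-fold lower (2.20 to 2.54), and at 76.9 and 183 CPM in the rest. DDIT4, an inhibitor of mTORC1, stood at 31.5 and 67.8 CPM in mitotic cells, 2.15-fold lower (1.96 to 2.35), and at 45.2 and 103 CPM in the rest. HSPH1, an HSP110 chaperone and the 1 heat shock gene of 13 that passed, stood at 157 and 100.4 CPM in mitotic cells and 91.4 and 61.4 CPM in the rest. HTR7, a serotonin receptor, stood at 13.1 and 26.1 CPM in mitotic cells and 15.2 and 33.8 CPM in the rest. NDRG1 stood at 98.6 and 58.3 CPM in mitotic cells, 1.69-fold higher (1.58 to 1.81), a log2 ratio of 0.75, and at 141 and 120 CPM in the rest, a log2 ratio of 0.23. Among the 6 measured genes of APOA1-high cells 6 were higher in stretched mitotic cells and 0 of 6 in the rest, and 4 of the 6 reached 10 CPM in stretched mitotic cells alone; APOC3 stood at 18.0 and 3.47 CPM in mitotic cells, where 50 and 27 cells held a UMI and 27% of the stretched UMIs lay in 1 cell. Without the APOA1-high cells, the log2 ratio of APOA1 was −0.48, but these cells are defined by APOA1 itself among others, so the value describes what they hold and no more. FN1 stood at 34.1 and 16.2 CPM in mitotic cells, from 94 and 107 cells, and at 40.6 and 52.4 CPM in the rest; without the APOA1-high cells its log2 ratio in mitotic cells was −0.31. Across the 8829 genes compared in both sets, 8 were higher in both, of 31 by mitotic cells and 13 by the rest, 29 were lower in both, of 67 and 58, and 0 went opposite ways.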

How the data were processed

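Single-cell 3′ RNA libraries of GFP-sorted HCT116 cells were made with the Chromium kit, per the labels' protocols. The deposited matrices hold UMI counts per gene and cell barcode, made by the authors with Cell Ranger 7.0.0 per the file headers and on hg38 per the submitters' processing notes; the gene annotation is not given in the sources used here. Libraries held 79984521, 225094841 and 235348538 UMIs in the stretched bottom, stretched top and not stretched top groups.

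Cells with at least 5000 UMIs and at most 20% mitochondrial UMIs were kept, which left out 53.4%, 31.7% and 43.0% of listed barcodes. No doublet caller was run; 6.75%, 6.05% and 6.86% of mitotic cells were in the top 5% of their library by UMIs. UMIs were summed over mitotic cells and over the rest of each library and divided by the total of the set (CPM). Genes with at least 10 CPM in either set were compared by the log2 ratio of CPM + 1 and called at 1.5-fold; folds divide one CPM by the other, exact conditional binomial 95% intervals go with them, and shares have Clopper-Pearson intervals. Both cover counting error only. Genes were named by a rule: the 7 rule genes, up to 4 genes per list by mean ratio, the 10 most extreme outside the lists, the 8 most extreme between libraries, EPCAM and VIM. The members and lists were chosen with earlier results of these data known.

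Promoter windows came from RefSeq (GRCh38.p14), and overlaps of 3′ ends from the GENCODE 29 annotation. Python 3.11.15, numpy 2.4.6, scipy 1.17.1, pandas 2.3.3, matplotlib 3.10.9 and R 4.3.3 with edgeR 4.0.16 (TMM factors only) were used, and the ratio calculation was tested on simulated data. Alternatives changed the cell filter, the score, the cut, the scaling, the added CPM and the thresholds.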

Additional observations from a re-analysis of the deposited data

Results flagged for a closer look

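RTKN2, a rhotekin family gene, was past 1.5-fold in opposite directions, with a log2 ratio of mitotic cells over the rest of −0.64 in stretched bottom, 0.67 in stretched top and 0.92 in not stretched top. Its levels were 33.3 CPM in mitotic cells and 52.4 CPM in the rest of stretched bottom, 29.4 and 18.2 CPM in stretched top, and 35.2 and 18.2 CPM in not stretched top. The difference between libraries was not tested, and it was picked out of all genes compared.

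Barcodes outside the filter also passed the 7-gene cut of their own library. Of those with 1000 or more but under 5000 UMIs and at most 20% mitochondrial UMIs, 21.7% passed in stretched bottom, 11.1% in stretched top and 17.6% in not stretched top. Of those with at least 5000 UMIs but over 20% mitochondrial UMIs, 4.49% passed in stretched top and 2.83% in not stretched top. Shares from so few UMIs are noisy, and these barcodes were not called mitotic.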

How the results depend on the processing

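No paired analysis was possible because each group had 1 library, and none could be left out. Counts of genes higher and lower in mitotic cells than in the rest were 201 and 304 in stretched bottom, 285 and 120 in stretched top and 283 and 252 in not stretched top. Between mitotic cells they were 399 and 1263 for stretched bottom against stretched top, and 31 and 75 for stretched against not stretched top. A minimum of 50 CPM gave 119 and 49, 162 and 26, 166 and 62, 246 and 288, and 13 and 14 in that order. A 2-fold threshold gave 90 and 64, 135 and 13, 131 and 45, 72 and 407, and 9 and 3. A minimum of 1 CPM gave 960, 280 and 636 lower genes against the rest, 2531 lower between channels, and 152 and 257 with stretch. Adding 5 CPM gave 174, 58 and 133 lower genes against the rest and 23 with stretch. Thinning every cell to 5000 UMIs gave 459 and 1094 in stretched bottom, 210 and 381 lower genes in the tops, 699 higher between channels and 186 lower with stretch. Equal cell weights gave 595 and 189 lower genes in stretched bottom and stretched top. Totals without mitochondrial and ribosomal protein genes gave 282 and 478 lower genes in the tops, 1897 lower between channels and 50 higher with stretch. TMM scaling gave 808 and 832 between channels and 50 and 20 with stretch; median of ratios gave 969 and 769, and 60 and 19. The top 5% as the cut gave 460 lower genes in stretched bottom and 141 lower with stretch, and the top 20% gave 20 higher with stretch. Cells of at least 10000 UMIs gave 77 lower genes in stretched top, at most 10% mitochondrial UMIs 154 in not stretched top and 153 with stretch, and the unused set of UMIs 127 with stretch. The causes were not tested.

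The share of cells past the common cut was 14.6% in stretched bottom and 8.67% in not stretched top. It was 18.4% and 10.8% without thinning, 9.99% and 5.59% at 1000 UMIs, 12.2% and 9.65% at up to 10% mitochondrial UMIs, 9.13% and 5.12% without the top 5% by UMIs, 28.0% and 11.1% by the mitosis lists, 9.35% and 5.19% at a top 5% cut, and 10.3% in not stretched top at 10000 UMIs or more.

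Some named genes changed sign on the log2 scale; the cause was not tested. In stretched bottom against the rest, SPRR2D gave −2.62 with the score thinned and −1.34 without the top 5% by UMIs, CLEC4D −1.13 at the top 5%, −1.19 with the mitosis-list score and −1.16 from 1000 UMIs, SULT6B1 0.049 on the unused set and DHRS2 −0.17 without the top 5% by UMIs. HIST1H1E gave 0.0447 at the top 20% and 0.41 with the mitosis-list score in stretched top, and 0.42 with that score in not stretched top. Between channels, MASTL gave 0.12 with thinned values, and SPRR2D −0.15 and −0.47 with the score thinned and without the top 5% by UMIs. With stretch, FN1 gave −0.57 at the top 5%, −0.24 at up to 10% mitochondrial UMIs and −0.31 without APOA1-high cells. APOA1 gave −0.21 with the mitosis-list score and −0.48 without those cells, APOA2 −0.12 without them, AGR2 −0.0915 at the top 20% and −0.18 without them, and GPC3 −0.29 at the top 5% and −0.43 at up to 10% mitochondrial UMIs. Of the genes named as past 1.5-fold, 82 of 103, 80 of 100 and 90 of 122 against the rest, 48 of 80 between channels and 8 of 28 with stretch were past it under every alternative. Depth limits members most in the top channel libraries, where the median mitotic cell rests on 23 or 30 UMIs of the 7 genes.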
